A study of Rattus norvegicus with 6 samples.

Results

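The genes described here encode 38 lysosomal enzymes and membrane proteins: proteases, glycosidases, sulfatases, lipid and phosphate ester hydrolases, the activator and lipid transfer proteins that work with them, and proteins of the lysosomal membrane. They were taken as a list of gene symbols, and their probes were found on the array by matching probe accessions to gene symbols. Of the 38 genes, 36 were matched to at least 1 probe and entered the test of 31179 genes; no probe was matched to Naglu, which encodes the heparan sulfate hydrolase alpha-N-acetylglucosaminidase, or to Sgsh, which encodes sulfamidase. Of the 31179, 12276 carried a gene symbol, and the rest were probe accessions without a matched symbol, each counted as a gene. Shares of all genes are over all 31179 unless stated otherwise. Together the 36 genes had 59 probes, and all 59 entered the test of probes. That test required every array of a group to be flagged well above background. The 36 brightest probes carried that flag on all 6 arrays.

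Renal cortex was taken from 6 male Sprague-Dawley rats, bought at 5 weeks of age, and hybridised to 1-colour Agilent arrays, 1 array per animal. For 4 weeks 3 animals received corn oil, the vehicle, and 3 received benzyl acetate at 1000 mg/kg/day, a fragrance ester. The labels name no other difference between the groups. Values are log2 signals relative to the 75th percentile of each array's probes, so 0 marks that percentile and 1 unit is a doubling.

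Lysosomes are acidic organelles in which hydrolases break down protein, glycans and lipids delivered by endocytosis and autophagy. Most of the soluble enzymes carry mannose 6-phosphate tags that route them there, the glycoproteins LAMP1 and LAMP2 line its membrane, and transporters such as sialin and cystinosin carry the products out to the cytosol. The proximal tubule, which fills most of the renal cortex, takes up filtered protein by megalin and cubilin and degrades it in lysosomes, and for that reason is rich in cathepsins. The transcription factor TFEB drives many lysosomal genes together through a short E-box element, CACGTG.

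The tissue carried its defining markers. All 10 proximal tubule markers on the list used were detected, from Miox at 9.22 and Fbp1 at 9.06 down to Slc5a12 at 2.05 (vehicle means, log2 relative signal). Macrophages are the other cell type of the cortex rich in lysosomes. Of 14 macrophage markers 13 were tested, and the mean of their log2 signals ran from 1.41 to 1.70 on the vehicle arrays and from 1.07 to 1.52 on the treated arrays. In bulk tissue fewer cells of a type and less RNA per cell cannot be told apart. Across all genes benzyl acetate replicate 3 was the highest of the 6 arrays for 25.0% of genes, against 13.8% to 16.7% for each other array, and it was highest for 14 of the 36 lysosomal genes.

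Treated cortex was compared with vehicle cortex to see which lysosomal transcripts differ after 4 weeks of dosing. Limma called 0 of the 36 at an adjusted p under 0.05, as it called 0% of all 31179 genes; at an unadjusted p under 0.05 there were 2 lysosomal genes (6.74% of all genes). Of these Slc17a5 was lower, as were 2.92% of all genes, and Cln3 higher, as were 3.82%. The fit of single probes gave 1 lower and 1 higher of the 59, from the same genes, beside 3.01% and 3.68% of all 42355 probes. Of the 36, 16 were lower and 20 higher with benzyl acetate, and their median log2 difference was 0.01, as it was over all genes tested (0.01). With Slc17a5 set aside, the other 35 ranged from -0.20 (Idua) to 0.20 (Cln3), that is, by at most 1.15-fold in either direction. The intervals were narrow: for 35 of the 36 genes the 95% interval of the difference lay inside a 1.5-fold change, as it did for 73.9% of all genes. The split between lower and higher moved with the arrays and the scaling. Without benzyl acetate replicate 3, 26 of 36 were lower and the median was -0.06, and under median scaling 22 were lower and it was -0.02.

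**Figure D1:**
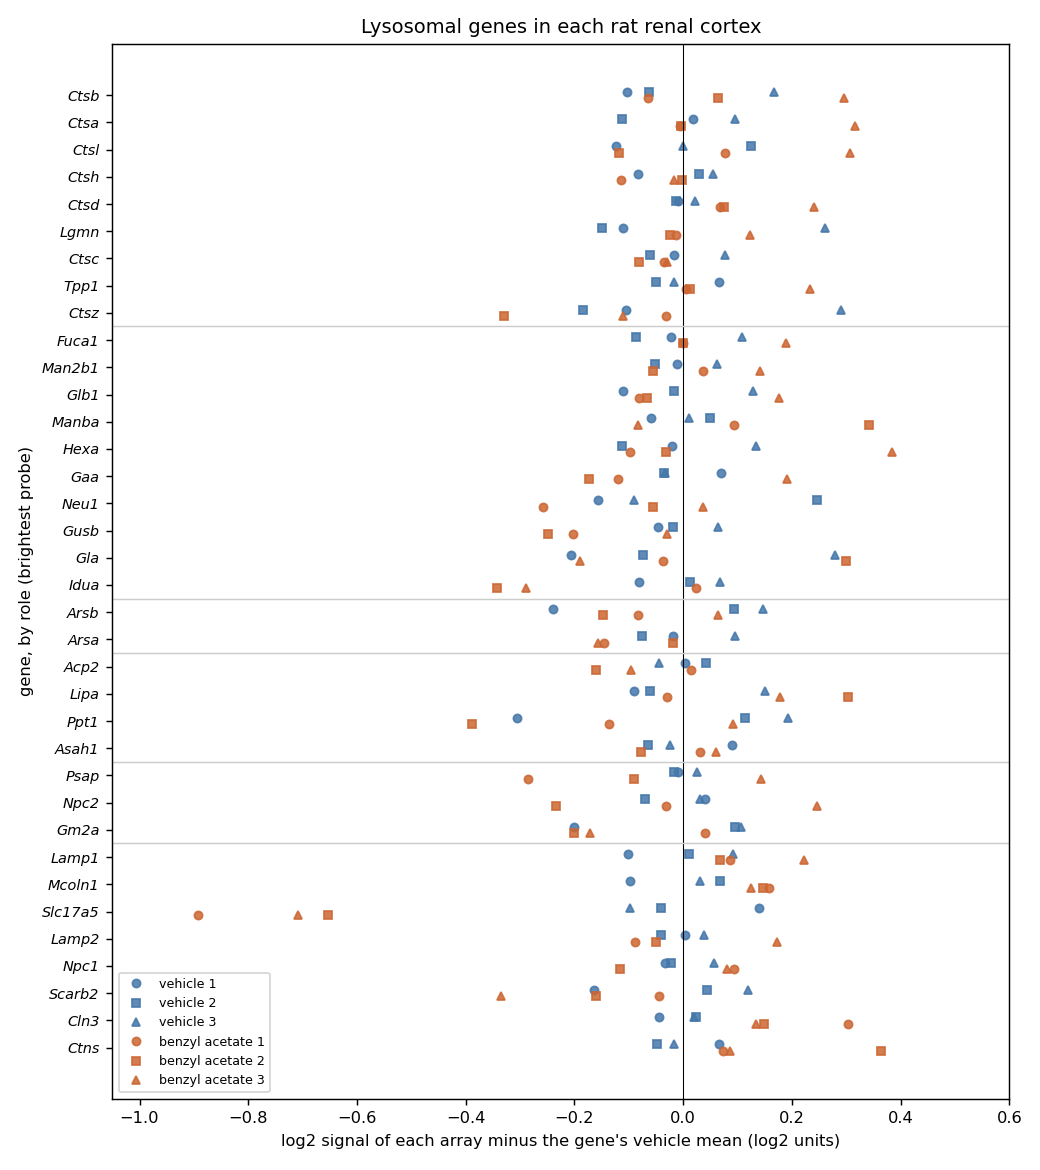
Log2 signal of each array minus the gene's vehicle mean (x axis, log2 units) for the brightest probe of 36 lysosomal genes (y axis, grouped by role: proteases, glycosidases, sulfatases, lipid and phosphate ester hydrolases, activators and lipid transfer proteins, membrane proteins; within a role from brightest to dimmest), with 3 vehicle arrays in blue and 3 benzyl acetate arrays in orange. The arrays of the groups mix around 0 for 31 genes, the treated arrays lie just above the vehicle arrays for Cln3, Mcoln1, Ctns and Ctsd, and for Slc17a5 they lie 0.65 to 0.89 below the vehicle mean.

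Probe brightness differed widely within the list. Brightness depends on the probe as well as on the transcript, so the order of probes is no order of transcript amounts. In vehicle cortex the brightest probes were those of Ctsb, at 8.79 ± 0.15 (SD, n = 3), and Ctsa, at 8.59 ± 0.10 (SD, n = 3), and the dimmest was that of Idua, at -3.40 ± 0.075 (SD, n = 3). The probes of Ctsl, Fuca1, Ctsh, Ctsd, Man2b1 and Lgmn followed the first pair, between 6.89 and 6.40. In all 29 of the 36 probes lay above the 75th percentile of the array, against 38.4% of all genes. That share includes accessions without a gene symbol, and it was not computed for genes with a symbol alone. The 7 below the percentile were Gm2a, Ctsz, Scarb2, Cln3, Gla, Ctns and Idua. For 13 of the 35 neighbouring pairs in this order the gap was smaller than 1 SD between vehicle animals. The brightest probe of Slc17a5 stood at rank 18, with a gap of only 0.02 to Lipa.

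Among the 9 proteases 6 were higher and 3 lower, with a median difference of 0.08, and none passed in limma (adjusted p 0.792 to 0.983). Without benzyl acetate replicate 3, 3 were higher and 6 lower, with a median of -0.02. Ctsb encodes cathepsin B, a cysteine protease. Its log2 signals were 8.68, 8.72 and 8.95 in vehicle and 8.72, 8.85 and 9.08 with benzyl acetate, so the groups overlapped and the difference was 0.10 (95% interval -0.21 to 0.40). It was 8.7e-05 without benzyl acetate replicate 3 and 0.18 without vehicle replicate 3. Ctsd encodes cathepsin D, the main aspartic protease of lysosomes. It stood at 6.66, 6.65 and 6.69 in vehicle and at 6.73, 6.74 and 6.91 with benzyl acetate, so that every treated array lay above every vehicle array. The difference was 0.13 (95% interval -0.05 to 0.31; adjusted p = 0.792 in limma), and 0.07 without benzyl acetate replicate 3 or 0.05 with normexp background correction. Ctsz, cathepsin Z, varied more between animals, from -1.18 to -0.70 in vehicle and from -1.32 to -1.03 with benzyl acetate. Its SD of 0.25 in vehicle was among the 3 highest of the list.

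For Ctsa, which encodes the carboxypeptidase that protects beta-galactosidase and neuraminidase 1, the 3 probes gave 0.09, 0.09 and 0.10, the closest match between probes of any gene on the list with several. The rest were Ctsl (0.09), Tpp1 (0.08), Lgmn (0.03), Ctsh (-0.04) and Ctsc (-0.05), as log2 differences. Benzyl acetate replicate 3 was the highest array for 5 of the 9 proteases and vehicle replicate 3 for the other 4. The median deviation of the proteases from their 6-array mean was 0.18 and 0.08 on these arrays, and between -0.09 and -0.03 on the others. The part of these 2 animals in the comparison was not tested.

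The 10 glycosidases tested remove sugars from glycoproteins, glycolipids and glycosaminoglycans. Of these 6 were higher and 4 lower, with a median difference of 0.02, and none passed (adjusted p in limma 0.775 to 0.996). Without benzyl acetate replicate 3, 2 were higher and 8 lower, with a median of -0.07. Fuca1, alpha-L-fucosidase, had the brightest probe, at 6.81, 6.75 and 6.94 in vehicle and 6.83, 6.83 and 7.02 with benzyl acetate, a difference of 0.06 (95% interval -0.16 to 0.28). Gusb encodes beta-glucuronidase. It stood at 0.30, 0.33 and 0.41 in vehicle and at 0.14, 0.10 and 0.32 with benzyl acetate. The treated arrays were lower apart from replicate 3, which reached into the vehicle range, and the difference was -0.16 (95% interval -0.37 to 0.04). Its other probes gave -0.11 and -0.06, and for the first of these every treated array lay below every vehicle array.

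Idua, alpha-L-iduronidase, had the lowest difference of the list after Slc17a5. It measured -3.48, -3.39 and -3.33 in vehicle and -3.38, -3.74 and -3.69 with benzyl acetate, so benzyl acetate replicate 1 lay among the vehicle arrays, and the difference was -0.20 (95% interval -0.49 to 0.08). Hexa, the alpha subunit of beta-hexosaminidase, had the widest spread among treated animals of these enzymes. It stood at 3.70, 3.61 and 3.86 in vehicle and at 3.63, 3.69 and 4.11 with benzyl acetate. Its difference of 0.09 rested on replicate 3 and was -0.06 without it. The neuraminidase Neu1, which releases sialic acid from glycoconjugates, differed by -0.09 (-0.43 to 0.24). Manba (0.12), Man2b1 (0.04), Gla (0.02), Glb1 (0.01) and Gaa (-0.03) made up the rest.

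Both sulfatases tested were lower, by -0.11 for Arsa and -0.06 for Arsb, and neither passed (adjusted p in limma 0.833 and 0.956). Arsb, which acts on dermatan and chondroitin sulfate, measured 3.71, 4.04 and 4.09 in vehicle and 3.86, 3.80 and 4.01 with benzyl acetate. Vehicle replicate 1 was the lowest of the 6, and the groups overlapped. Of the 4 lipid and phosphate ester hydrolases 2 were lower and 2 higher, with Lipa, lysosomal acid lipase, at 0.15 and Asah1, acid ceramidase, at 0.00. Acp2, lysosomal acid phosphatase, had the brightest probe of that group. It stood at 3.81, 3.85 and 3.76 in vehicle and 3.82, 3.64 and 3.71 with benzyl acetate, a difference of -0.08 (95% interval -0.26 to 0.10). Ppt1, palmitoyl-protein thioesterase 1, was the most variable gene between vehicle animals, with 1.03, 1.45 and 1.52, against 1.20, 0.94 and 1.42 with benzyl acetate. Its interval was the widest of the list, from -0.58 to 0.30.

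The 3 activator and lipid transfer proteins were lower (1 of 3 without benzyl acetate replicate 1), with differences of -0.11 for Gm2a, -0.08 for Psap and -0.01 for Npc2, and none passed (adjusted p in limma 0.883 to 0.997). Psap encodes prosaposin, the precursor of the saposins that present sphingolipids to hydrolases. It varied little in vehicle, at 4.17, 4.16 and 4.21, and more with benzyl acetate, at 3.89, 4.09 and 4.32. The treated arrays lay on both sides of the vehicle arrays.

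**Figure D2:**
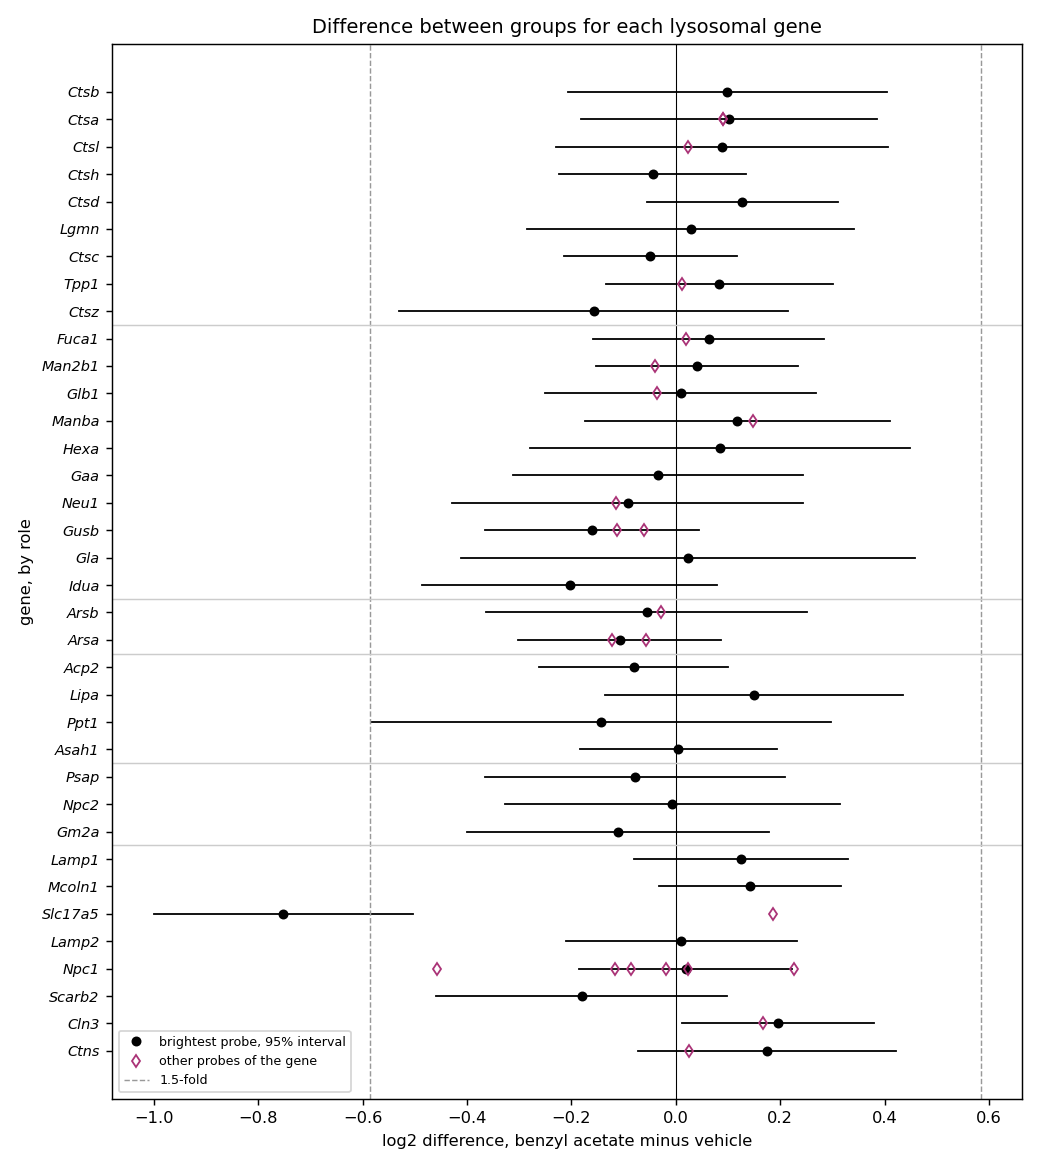
Log2 difference, benzyl acetate minus vehicle (x axis), for each of 36 lysosomal genes (y axis, same order and role groups), with black points and lines for the brightest probe and its 95% interval (n = 3 per group), open diamonds for the other probes of the gene and dashed lines at a 1.5-fold change. Every interval but that of Slc17a5 lies between the dashed lines, and the other probe of Slc17a5 lies on the other side of 0.

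The 8 membrane proteins held the highest gene of the list, Cln3, and the lowest, Slc17a5. Slc17a5 was singled out because its brightest probe was known to be low. With it set aside, the lowest gene was the glycosidase Idua, at -0.20. Of the 8 membrane proteins 6 were higher and 2 lower, with a median of 0.07 (4 higher and 4 lower without benzyl acetate replicate 3). None of the 8 passed (adjusted p in limma 0.484 to 0.994). Every treated array lay above every vehicle array for 3 of them, Cln3, Mcoln1 and Ctns. With Ctsd that made 4 of 36 genes, beside 7.51% of all genes. Cln3 encodes the membrane protein lost in juvenile Batten disease. It stood at -2.14, -2.07 and -2.08 in vehicle and at -1.79, -1.95 and -1.96 with benzyl acetate, a difference of 0.20 (95% interval 0.01 to 0.38; adjusted p = 0.726 in limma). Its dimmer probe gave 0.17 (95% interval -0.12 to 0.46), with overlapping groups.

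Mcoln1 encodes the calcium release channel TRPML1. It measured 3.79, 3.95 and 3.92 in vehicle and 4.05, 4.03 and 4.01 with benzyl acetate, a difference of 0.14 (95% interval -0.03 to 0.32; adjusted p = 0.765 in limma). Ctns, which encodes the cystine exporter cystinosin, stood at -3.02, -3.13 and -3.10 in vehicle and -3.01, -2.72 and -2.99 with benzyl acetate. The groups were parted by only a narrow margin, and replicate 2 set most of the difference of 0.17 (95% interval -0.07 to 0.42; adjusted p = 0.789 in limma), which was 0.08 without it. The dimmer probe of Ctns gave 0.02 (95% interval -0.19 to 0.24), with overlapping groups. Lamp1, the most abundant glycoprotein of the lysosomal membrane, had the brightest probe of the group. It was 5.80, 5.91 and 5.99 in vehicle and 5.99, 5.97 and 6.12 with benzyl acetate, a difference of 0.13 (95% interval -0.08 to 0.33) with overlapping groups. Lamp2 differed by 0.01 (-0.21 to 0.23).

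Scarb2 encodes LIMP-2, the receptor that carries glucocerebrosidase to lysosomes. It was -1.74, -1.53 and -1.46 in vehicle and -1.62, -1.74 and -1.91 with benzyl acetate, a difference of -0.18 (95% interval -0.46 to 0.10), with overlapping groups. Npc1, the cholesterol exporter of the lysosomal membrane, had 7 probes. The brightest gave 0.02 (-0.19 to 0.22) and the other 6 gave -0.46 to 0.23. The extremes came from 2 of its 3 dimmest probes, whose intervals reached from -1.85 to 0.94 and from -0.94 to 1.39.

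Slc17a5 encodes sialin, the transporter that carries free sialic acid out of lysosomes. It was singled out because its brightest probe was known to be low with benzyl acetate, so its values are a description. That probe stood at 3.52, 3.34 and 3.29 in vehicle and at 2.49, 2.73 and 2.68 with benzyl acetate. All treated arrays lay below all vehicle arrays, and the gap between the groups was wider than the range within either. Before scaling, its processed signal was 11544, 10651 and 10312 in vehicle against 5560, 6579 and 5645 with benzyl acetate. The difference was -0.75, a 1.68-fold lower signal, with a 95% interval of 0.25 to either side, and did not pass in limma (adjusted p = 0.484). Over the alternatives that kept this probe it ran from -0.80 to -0.68.

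The dimmer probe of Slc17a5 carries the same transcript accession and was also well above background on all 6 arrays. It stood at 1.00, 1.13 and 1.18 in vehicle and at 1.17, 1.37 and 1.33 with benzyl acetate. The treated arrays were the higher ones, though replicate 1 lay within the vehicle range, and the difference was 0.19 (95% interval -0.03 to 0.40). The gap between the probes on the same array therefore narrowed from 2.28 ± 0.22 (SD, n = 3) in vehicle to 1.34 ± 0.021 (SD, n = 3) with benzyl acetate. A signal ratio between probes on an array shows that they changed unequally and does not show which of them follows the amount of transcript. Where in the transcript either probe lies was not analysed here.

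**Figure D3:**
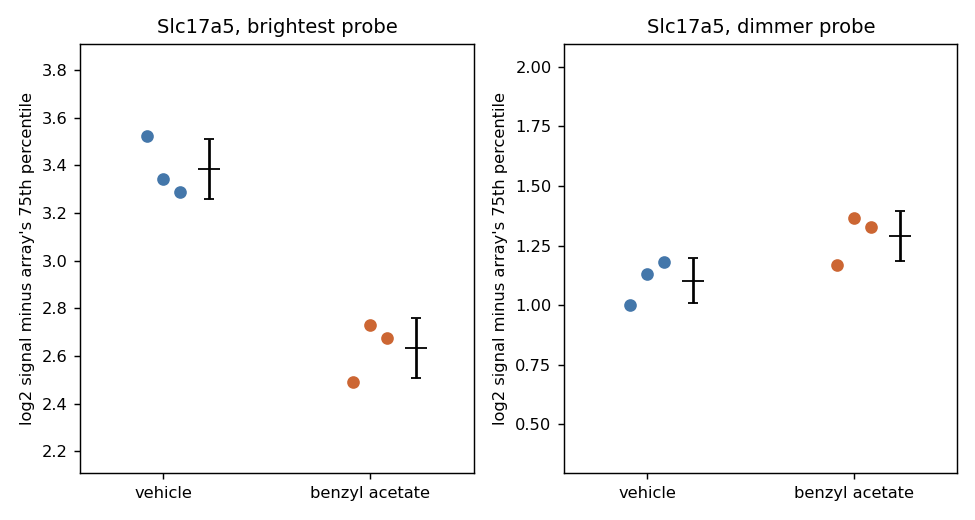
Log2 signal minus the array's 75th percentile (y axis) for the brightest and the dimmer probe of Slc17a5 in vehicle and benzyl acetate (x axis); points are arrays and bars the mean ± SD (n = 3), and both panels span 1.8 log2 units. The brightest probe is lower on all 3 treated arrays and the dimmer probe is not.

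Disagreement of this size between probes was rare among genes with several. Slc17a5 was singled out for the low value of its brightest probe, so its place among these genes is a description. The highest minus the lowest difference among its probes was 0.94 for Slc17a5. Over the 6367 genes with a symbol and at least 2 detected probes this range had a median of 0.09, and 38 genes, 0.597%, reached that of Slc17a5. Among the 4361 genes with exactly 2 probes 19 did so, 0.436%. The 15 lysosomal genes with several probes had a median range of 0.06. After Slc17a5 came Npc1 (0.68, with 7 probes), then Ctns (0.15) and Gusb (0.10), and the other 11 lay at 0.08 or less. Probes of opposite sign were found for 4 of the 15, Slc17a5, Npc1, Man2b1 and Glb1, and for 39.0% of all genes with several probes.

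**Figure D4:**
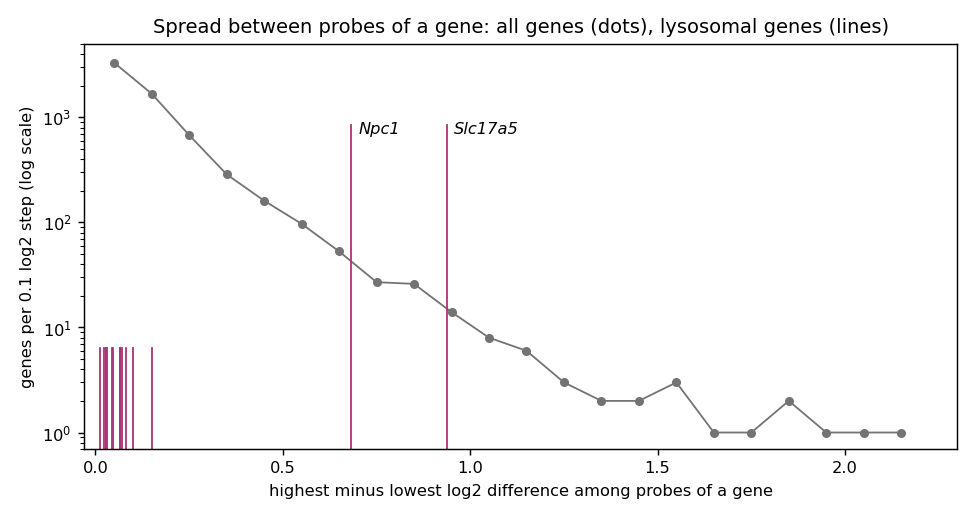
Number of genes (y axis, log scale, per step of 0.1) by the highest minus the lowest log2 difference among probes of the same gene (x axis), with grey dots for 6367 genes with at least 2 detected probes and purple lines for the 15 lysosomal genes among them, the tall lines marking Npc1 and Slc17a5. The other 13 lysosomal genes lie at 0.15 or below.

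No other lysosomal probe followed the brightest probe of Slc17a5. Of the 58 other probes only the dimmest of Gusb had every treated array below every vehicle array, beside 5.57% of all probes; it stood at -1.32, -1.30 and -1.30 in vehicle and -1.49, -1.41 and -1.36 with benzyl acetate, a difference of -0.11. Every treated array lay above for 4 of them, beside 7.14% of all probes. A dim Npc1 probe, at -0.46, was the only one past -0.38, which is 50% of the Slc17a5 difference, and its groups overlapped. Likeness was also measured as the root mean square distance over the 6 arrays between profiles centred on their vehicle mean. A flat profile lies 0.54 from that of Slc17a5. The 5 nearest lysosomal probes were the brightest of Gusb (0.44) and those of Idua (0.45), Arsa (0.45), Scarb2 (0.46) and Npc1 (0.46), and so only slightly nearer than no change at all. The Arsa probe, the middle of its 3 by brightness, stood at 0.75, 0.68 and 0.71 in vehicle and 0.45, 0.69 and 0.63 with benzyl acetate. The Npc1 probe stood at -2.18, -2.32 and -2.19 in vehicle and -2.42, -2.27 and -2.35 with benzyl acetate. In both the groups overlapped. The median distance was 0.56 over the 58 lysosomal probes and 0.57 over all probes.

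Other transporters of the SLC17 family and other genes of sialic acid turnover were set beside it. All 6 SLC17 relatives tested were higher, by 0.01 to 0.09, as were 16825 of all 31179 genes. Slc17a3, a renal urate and anion transporter, stood at 0.03, and none of the 6 passed the threshold (adjusted p in limma 0.954 to 0.992). The groups overlapped for all 6, and the 95% interval lay inside a 1.5-fold change for 4 of them. Of 9 tested genes of sialic acid metabolism none passed over all genes (adjusted p in limma 0.656 to 0.998), and 3 had an unadjusted p under 0.05, beside 6.74% of all genes. Neu2, cytosolic neuraminidase, differed by 0.79 (95% interval 0.34 to 1.24), from -1.83, -1.32 and -1.24 in vehicle to -0.81, -0.46 and -0.74 with benzyl acetate, with no overlap. St6gal1, a sialyltransferase, differed by -0.71 (-1.36 to -0.07), from 2.62, 2.62 and 1.90 to 2.07, 1.40 and 1.54, where vehicle replicate 3 lay within the treated range. St3gal1 differed by -0.30 (-0.55 to -0.06). Of the genes of sialic acid synthesis and activation, Nanp stood at 0.19 (-0.14 to 0.52), Gne at 0.11, Nans at -0.10 and Cmas at -0.01.

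The rest of the lysosomal system, taken from lists of related genes, was tested in the same way. Among 21 other hydrolases 11 were higher and 10 lower, with a median of 0.00, and the brightest, Scpep1, at 0.00. Among 17 other lysosomal membrane proteins 13 were lower, with a median of -0.03 and Cd63 at -0.02. Every treated array lay below every vehicle array for 3 of the 17, Laptm4a (-0.07), Tmem192 (-0.12) and Lmbrd1 (-0.10), beside 5.31% of all genes. Sorting genes had a median of -0.01 over 15, with the mannose 6-phosphate receptors Igf2r at 0.11 and M6pr at 0.06. The list of TFEB and mTORC1 genes had a median of 0.01 over 17, with Lamtor2 at -0.03, Tfeb at 0.09, Tfe3 at 0.01 and Mitf at 0.05. In the autophagy list 13 of 16 were higher and 3 lower, with a median of 0.05, Gabarapl1 at 0.15, Sqstm1 at 0.18 and Atg5 at -0.13. Every treated array lay above every vehicle array for 2 of the 16, beside 7.51% of all genes. For 1, Atg5, every treated array lay below, beside 5.31% of all genes.

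The proton pump that acidifies lysosomes leaned lower, with 7 of 9 subunits below 0 and a median of -0.04; Atp6v1b2 stood at -0.20 (95% interval -0.39 to -0.01) and every treated array lay below every vehicle array for 4 of 9, beside 5.31% of all genes. Of the cathepsin inhibitors Cst3 differed by 0.01 and Cstb by 0.19. No gene of these lists passed in limma (adjusted p 0.733 to 0.998). All 13 macrophage markers tested lay below 0, from -0.50 (Ptprc) to -0.02 (Cx3cr1), with a median of -0.13, and none passed (adjusted p in limma 0.757 to 0.997). Benzyl acetate replicate 2 had their lowest mean, 1.07, and vehicle replicate 3 the highest, 1.70. Of 6 T cell markers 5 were tested and all lay below 0, with a median of -0.91; their mean was -0.84 on vehicle replicate 3 and between -2.91 and -2.15 on the other arrays. Of the 10 proximal tubule markers 7 were higher and 3 lower, with a median of 0.08. None of the 10 passed (adjusted p in limma 0.736 to 0.979). Every treated array lay above every vehicle array for 2 of the 10, beside 7.51% of all genes. Their mean ran from 6.87 to 6.95 on the vehicle arrays and from 6.96 to 7.10 on the treated arrays. The part of macrophage, T cell or proximal tubule RNA in the lysosomal values was not tested. Markers of other nephron and vascular cells moved in both directions, with medians of -0.21 over 6 distal nephron genes (Calb1 at -0.41) and 0.03 over 5 endothelial genes (Kdr at 0.25). Of 4 fat markers 2 were tested, Adipoq at 0.34 and Fabp4 at -2.94. Every treated array lay below every vehicle array for Fabp4, beside 5.31% of all genes. The mean of the 2 was low and uneven, from -3.28 to -1.63 on the vehicle arrays and from -4.00 to -3.35 on the treated arrays. None of these distal nephron, endothelial or fat markers passed in limma (adjusted p 0.669 to 0.973).

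Promoter sequences were taken from RefSeq (GRCr8) as windows from 250 bases before to 50 after a gene's start, and 31 of the 38 genes had one. The E-box CACGTG, a palindrome that reads the same on both strands, occurred in 8 of the 31 windows (25.8%), beside 6.42% of all 33469 windows. All 8 also held it with T before or A after, TCACGTG or CACGTGA, which 3.20% of all windows did. The 8 were Cln3, Ctsd, Gaa, Glb1, Idua, Lamp1, Mcoln1 and Sgsh. Some genes have other annotated transcripts that start further upstream. Stretches before the start are shown for the 4 with more than 1 match and for Slc17a5, in whose window these letters do not occur, 5′ to 3′ on the gene's strand with each match in capitals. They lie at chr16:83075084-83075253 (minus strand), chr1:206968822-206968991 (minus), chr1:190597930-190598009 (minus), chr12:6358198-6358257 (plus) and chr8:88309665-88309814 (minus).
Lamp1: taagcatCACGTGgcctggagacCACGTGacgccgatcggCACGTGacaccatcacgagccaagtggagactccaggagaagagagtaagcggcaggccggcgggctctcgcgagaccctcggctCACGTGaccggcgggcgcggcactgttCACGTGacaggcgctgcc
Ctsd: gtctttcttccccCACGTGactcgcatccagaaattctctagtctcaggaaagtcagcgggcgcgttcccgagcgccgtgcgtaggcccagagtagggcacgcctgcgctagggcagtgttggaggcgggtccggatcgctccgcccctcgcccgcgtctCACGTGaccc
Cln3: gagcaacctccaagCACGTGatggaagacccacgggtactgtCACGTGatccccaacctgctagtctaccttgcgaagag
Mcoln1: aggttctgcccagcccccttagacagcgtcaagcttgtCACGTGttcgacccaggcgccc
Slc17a5: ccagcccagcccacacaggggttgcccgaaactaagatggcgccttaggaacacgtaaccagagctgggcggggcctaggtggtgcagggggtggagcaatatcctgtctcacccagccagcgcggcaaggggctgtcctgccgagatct

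The Lamp1 stretch holds 5 matches. Counted from the start, with negative positions before it, the matches begin at -157 and -10 for Ctsd and at -66 and -38 for Cln3. Mcoln1 has 1 at -22, in the stretch shown, and 1 more just after the start. Of the 7 tested genes with a match 5 were higher and 2 lower, with a median log2 difference of 0.13. Cln3, Mcoln1, Ctsd and Lamp1 were the highest of the 7. The median was 0.07 when either vehicle replicate 1 or benzyl acetate replicate 3 was left out. Without benzyl acetate replicate 3, 4 of the 7 were higher and 3 lower. Of the 22 tested genes with a window and no match 12 were higher and 10 lower, with a median of 0.01; without benzyl acetate replicate 3, 5 were higher and 17 lower. Among the 4 genes with every treated array above every vehicle array, Cln3, Mcoln1 and Ctsd held a match and Ctns did not. None of these genes passed the threshold, and a match describes letters in this window and does not show that a factor was bound.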

How the data were processed

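Cy3-labelled cRNA from the renal cortex of 6 rats was measured on 1-colour arrays, per the labels. Each group held 3 animals, per the labels. The authors deposited scanner output with an intensity per spot, after background subtraction and without scaling to other arrays; the submitters' processing notes name Agilent Feature Extraction 10.7. Flags of 0 or 1 for each spot come from the same deposited output. The authors' table of scaled intensity was an alternative; its columns equalled the processed signal scaled to a 75th percentile of 1, within an SD of 0.0059 log2 at most, with column medians of 0.110 to 0.115, so its scale is linear, without centring of genes.

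Each array's 75th percentile, taken over its 61537 probes that are not controls, was subtracted from the log2 processed signals. Flagged outlier spots (1 to 16 per array, none of a lysosomal gene) were left out, and no spot was saturated. A probe entered when well above background on all 3 arrays of a group (42355 probes). Probes were named by accession through a RefSeq table of GRCr8 (28206 matched). Probes without a match were grouped by accession, and each such accession counted as a gene. The brightest probe stood for a gene, and a second fit took each probe alone. Limma 3.58.1 in R 4.3.3 (lmFit, eBayes, Benjamini-Hochberg over all genes) compared the groups. The number of arrays limits the precision. On simulated data with 31165 genes, 200 of them changed, it recovered 28.4% of 1.5-fold, 55.2% of 2-fold and 85.8% of 4-fold changes, with 5.62% of calls false. The genes and lists were chosen with earlier results of these data known. Genes given with every array were the probes of Slc17a5, the 3 of lowest p per direction, those with separate groups, the brightest per role, the 5 nearest to Slc17a5 and the 3 of largest SD; other lists gave genes with unadjusted p under 0.05 or their brightest. Others given by difference alone were named after their values were seen. Slide 1 held vehicle replicate 1 and slide 2 the remaining 5 arrays. Alternatives were the replicate or slide as a block, normexp (offset 50, on median spot signals), quantile, cyclic loess and median normalization, other filters and probe rules, keeping outlier spots, array weights, a robust prior with a trend, the authors' table and leaving out each array.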

Additional observations from a re-analysis of the deposited data

How the results depend on the processing

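No lysosomal gene passed in limma under any of the 20 alternatives to the gene fit or the 3 to the probe fit, where the lowest adjusted p of a lysosomal gene ran from 0.260 to 0.817. With the replicate block 0 of them were called, as without it, and the lowest adjusted p of all genes was 0.672; same-numbered arrays did not deviate together (correlations across genes of -0.11, 0.008 and 0.001), and the block changed no call. Over all genes 0 were called, but 2 with normexp and 0 to 2 when leaving out an array (2 without benzyl acetate replicate 1). At an unadjusted p under 0.05 limma gave 1190 genes higher and 910 lower, against 828 and 1276 under median scaling, 1555 and 737 with normexp, and 5497 and 1081 with no filter on dim probes, which tests 45433 genes. The median difference of the lysosomal genes ran from -0.058 (without benzyl acetate replicate 3) to 0.044 (without benzyl acetate replicate 2). With the slide as a block, which takes vehicle replicate 1 out of the comparison, the Slc17a5 difference was -0.68. From the mean of its probes it was -0.28, and from the lowest-signal probe it turned to 0.19, since that is the other probe of the gene. Npc1 turned to -0.010 under median scaling, -0.058 from the mean of probes and -0.46 from the lowest-signal probe. When leaving out each array, the difference ran from -0.018 to 0.087 for Npc1 (below 0 without benzyl acetate replicate 1 or 3), from -0.00021 to 0.12 for Fuca1 and from -0.065 to 0.18 for Hexa (both below 0 without benzyl acetate replicate 3), from -0.19 to 0.026 for Psap (above 0 without benzyl acetate replicate 1) and from -0.18 to 0.017 for Arsb (above 0 without vehicle replicate 3). Without changing sign, Lamp1 ran from 0.075 to 0.17, Ppt1 from -0.30 to -0.022 and Ctsz from -0.25 to -0.012. Leaving out each array for the groups by role and by promoter was chosen after seeing the data. The cause was not tested. Over all genes the median interval reached 0.27 log2 units to either side, without adjustment for the number of genes. Differences smaller than that were not detectable for the typical gene. Larger ones could also be missed, since calls used p adjusted over all genes. The brightest probe of Slc17a5, at -0.75 with an interval of 0.25 to either side, had an adjusted p of 0.484 in limma. On the simulated data 28.4% of 1.5-fold changes were recovered.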
